A study of Rattus norvegicus with 4 samples.

Results

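The receptors described here are 10 G-protein-coupled receptors through which nutrients, hormones and neurotransmitters tune insulin secretion. They were chosen by name: the fatty acid receptor gene Ffar1, the lipid amide receptor gene Gpr119, the glucagon receptor gene Gcgr, the adrenergic receptor gene Adra2a, the somatostatin receptor genes Sstr1, Sstr2, Sstr3 and Sstr5, the muscarinic receptor gene Chrm3 and the purinergic receptor gene P2ry1. All 10 were among the 23360 gene symbols of the series, and 9 of them were among the 11960 genes with a mean of at least 1 TPM (an abundance corrected for transcript length and scaled to a sum of 1000000 per culture). The study compared the rat insulinoma line INS-1 832/3 grown as a standard monolayer (2D) with the same line 3D-bioprinted into GelXA LAMININK 411, a gelatin-based hydrogel with laminin. Polyadenylated RNA was sequenced from 2 cultures of each kind, all at passage 3 and harvested after 5 days. All cultures shared the medium, RPMI-1640 with fetal bovine serum, and selection with Geneticin. This is a single tumour-derived line that also carries the human insulin gene, and no animal, donor or other line was tested.

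Beta cells set insulin release mainly by glucose metabolism, and receptors of this class scale the response up or down. Receptors coupled to Gs raise cyclic AMP, those coupled to Gq activate phospholipase C and release stored calcium, and both amplify secretion when glucose is high. Receptors coupled to Gi and Go lower cyclic AMP and hyperpolarize the cell, and so restrain secretion. In these terms Gcgr and Gpr119 are Gs-coupled, Ffar1, Chrm3 and P2ry1 are Gq-coupled, and Adra2a and the somatostatin receptors are Gi-coupled.

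The cultures had the transcript profile of beta cells. Of 16 beta-cell markers in the files, 15 had a mean of at least 1 TPM, and the summed level of the 16 ran from 148300 to 171400 TPM without separating the groups. Most of this sum is Ins1. Of 15 tested markers, 4 had an adjusted p below 0.05 in limma, 3 higher and 1 lower in 3D culture. That is 26.7% of those tested, against 38.0% of all genes tested. The fall was that of Ins2, from 13290 to 9141 TPM in the mean. Of the delta-cell markers, none of 5 reached 1 TPM and Hhex, Rbp4 and Ghsr were listed at 0. The sum of the alpha-cell markers was 809 and 859 TPM in the monolayers and 1009 and 1122 TPM in 3D culture, nearly all of it Gc and Gcg, while Irx2 and Ttr were listed at 0. Sums of endothelial markers lay between 17.1 and 20.4 TPM, most of it Esam with a small part from Kdr, those of fibroblast markers, almost entirely Pdgfra, between 1.89 and 2.35 TPM, and those of leukocyte markers between 0.577 and 1.56 TPM. The share of mitochondrially encoded transcripts was 9.35% and 10.1% in monolayer and 12.3% and 13% in 3D culture, and its part in the results below was not tested. TPM keep no read number, so a level has no counting error here. In bulk RNA, fewer cells expressing a gene and less of its RNA per cell cannot be told apart.

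The receptors spanned a wide range of levels, and their order was much the same in both kinds of culture. In monolayer the mean level fell from Gcgr through Ffar1, Sstr3, Gpr119, P2ry1 and Adra2a to Sstr1, Chrm3, Sstr2 and Sstr5. Neighbours in this order had non-overlapping cultures except for the pairs Sstr3 with Gpr119 and Sstr1 with Chrm3. In 3D culture Gpr119 stood before Sstr3 and no pair of neighbours overlapped. Gcgr lay at the 88.3rd percentile of all tested genes by mean TPM, Ffar1 at the 79.5th, Gpr119 at the 73.7th, Sstr3 at the 71.8th, P2ry1 at the 65.2nd and Adra2a at the 62.9th. Sstr1, Chrm3 and Sstr2 were low, at the 17.7th, 11.7th and 6.92nd percentile. Sstr5 was the receptor closest to not being expressed, since it stayed below 0.2 TPM in every culture. None of the 10 was at 0 in a culture.

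**Figure D1:**
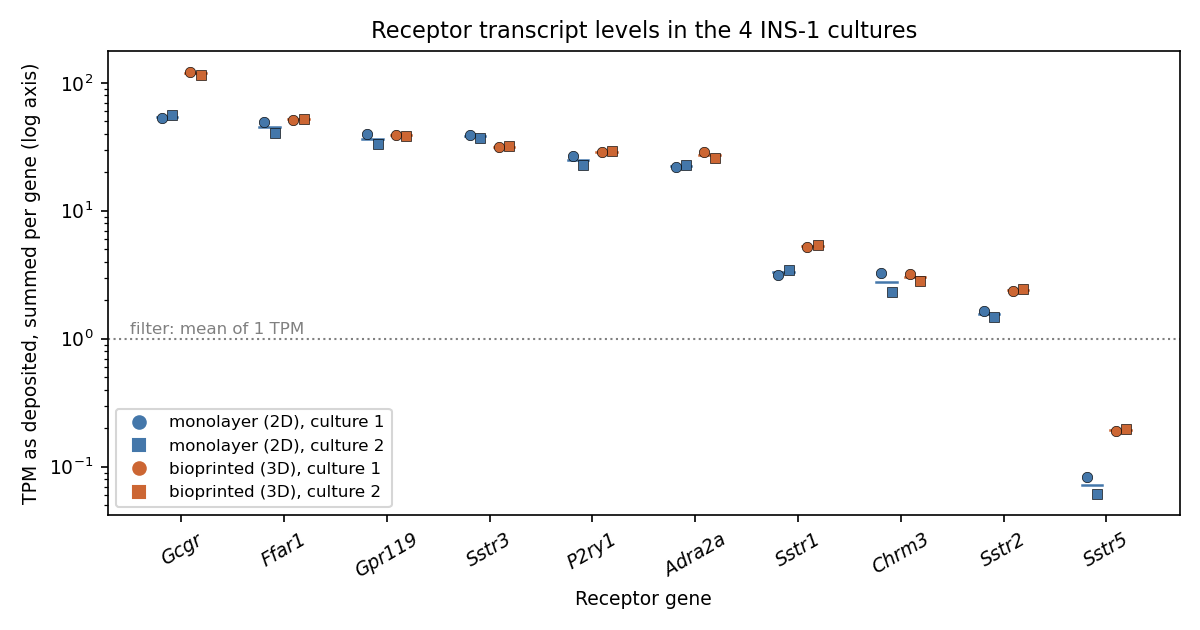
TPM as deposited, summed per gene, on a log axis for the 10 receptor genes, ordered by mean level, with circles for culture 1 and squares for culture 2 of the monolayer (blue) and 3D (orange) groups and a bar at each group mean (n = 2). The values run from 0.0608 TPM for Sstr5 in a monolayer culture to 122 TPM for Gcgr in a 3D culture, and the largest gap between groups above the dotted line at 1 TPM is that of Gcgr.

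Between monolayer and 3D culture, 4 of the 9 tested receptors passed the threshold. Gcgr, Sstr1 and Sstr2 were higher in 3D culture and Sstr3 was lower. The test was limma's moderated test on log2(TPM + 1) after scaling between cultures, with an adjusted p (Benjamini-Hochberg over all 11960 genes) below 0.05. Of all genes tested, 38.0% passed this threshold, 18.5% higher and 19.5% lower in 3D culture, so a count of 4 in 9 is near the background of the whole transcriptome. The median log2 fold change was 0.18 over the 9 receptors and -0.0035 over all genes tested. Deposited TPM of the groups did not overlap for 8 of the 10 receptors, among them Sstr5, which was not tested, and for 74.2% of all genes tested. Without 3D replicate 1, or without 3D replicate 2, Gcgr was the single receptor called, and the calls over all genes fell to 108 and 632. The smallest two-sided p that an exact permutation test allows with this number of cultures is 0.333, and the calls therefore depend on limma's pooling of the spread over genes. A fold change on this scale understates the change of low genes such as Sstr1, Sstr2 and Chrm3.

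**Figure D2:**
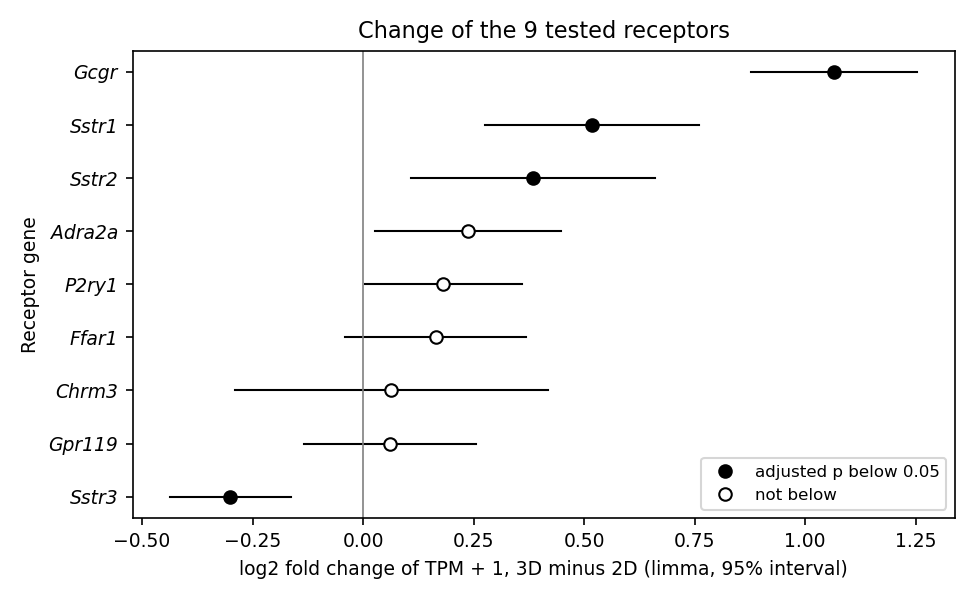
Log2 fold change of TPM + 1, 3D minus 2D, with its 95% interval from limma for the 9 tested receptor genes (2 cultures per group), filled where the adjusted p was below 0.05. Gcgr stands apart at 1.07, Sstr1 and Sstr2 lie at 0.52 and 0.38, and Sstr3 alone lies below 0, at -0.30.

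Of the Gs-coupled receptors, Gcgr had the largest log2 fold change among the 9 receptors tested. Gcgr encodes the receptor of glucagon, which in beta cells raises cyclic AMP. It had 52.8 and 56.2 TPM in the monolayer cultures and 122 and 116 TPM in the 3D cultures. Both 3D cultures lay far above both monolayer cultures, and the means, 54.5 ± 2.40 and 119 ± 4.24 TPM (SD, n = 2), differed 2.18-fold. The log2 fold change was 1.07 (standard error 0.076, 95% interval 0.88 to 1.25, adjusted p = 0.0035 in limma). A rise of the mean TPM by a factor of at least 2 was found in 3.90% of the genes tested. Gcgr passed the threshold in all 10 other settings and with each culture left out in turn, where its adjusted p was at most 0.0497.

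The rise of Gcgr was seen in each of its 3 transcripts in the files, with unequal size. ENSRNOT00000054962.2 had 30.1 and 27.2 TPM in the monolayers and 53.2 and 47.9 TPM in 3D culture. ENSRNOT00000088898.1 had 13.9 and 18.3 TPM in the monolayers and 37.5 and 38.1 TPM in 3D culture. ENSRNOT00000083601.1, the least abundant, had 8.72 and 10.6 TPM in the monolayers and 31.0 and 29.6 TPM in 3D culture. In none of the 3 did the groups overlap. In a fit over 15020 single transcripts, chosen after the data were seen and in which 23.5% of transcripts passed, their log2 fold changes were 0.73 (adjusted p = 0.0174), 1.13 (adjusted p = 0.0208) and 1.50 (adjusted p = 0.0158) in limma. The share of the gene's TPM held by the first transcript was 57.1% and 48.5% in monolayer and 43.7% and 41.5% in 3D culture. That of the third was 16.5% and 18.9% against 25.4% and 25.6%, and these shares did not overlap between groups, while those of the second did. The transcripts share sequence, so their shares depend on how the quantification divided reads among them, and a difference in shares was not tested.

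**Figure D3:**
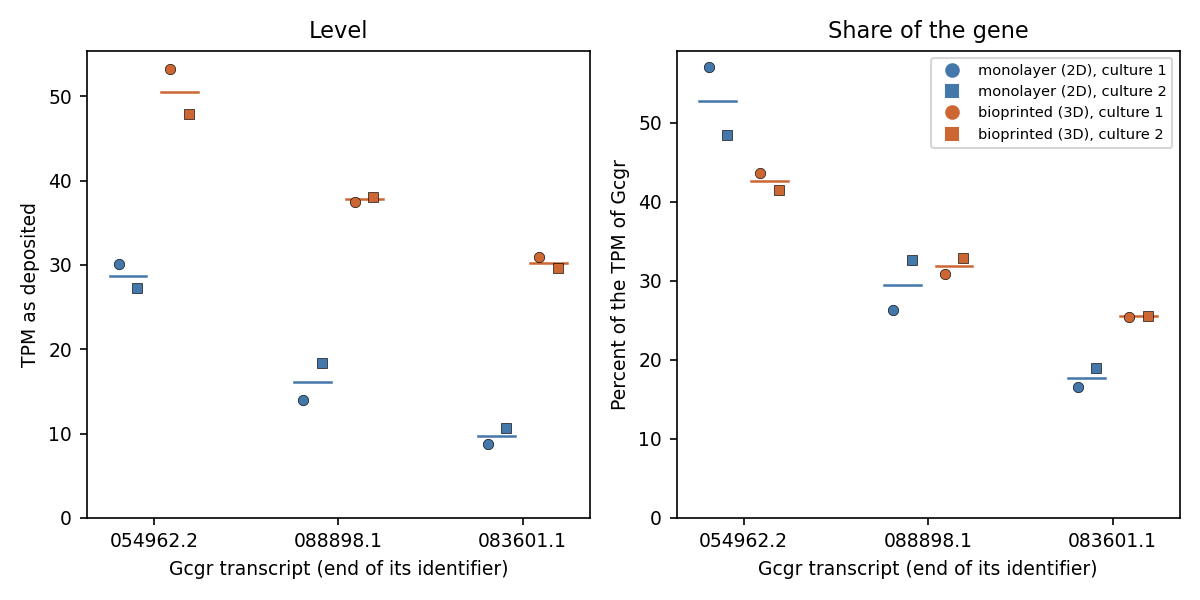
Deposited TPM (left) and percent of the gene's TPM (right) of the 3 Gcgr transcripts in each culture, with circles and squares for cultures 1 and 2, monolayer in blue, 3D in orange and bars at the group means (n = 2). All 3 transcripts are higher in both 3D cultures, and the share of the third is 25.4% and 25.6% in 3D against 16.5% and 18.9% in monolayer culture.

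RefSeq lists 2 start regions of Gcgr on GRCr8, 793 bases apart. They are shown because the gene has the largest log2 fold change of those tested and several transcripts; which transcript of the files begins at which start was not determined here. Each sequence runs from 250 bases before to 50 bases after the start, 5′ to 3′, and capitals mark matches to the motifs described with the somatostatin receptors below. The first is at chr10:106306553-106306852, plus strand, and the other at chr10:106307346-106307645, plus strand.
Gcgr start 1: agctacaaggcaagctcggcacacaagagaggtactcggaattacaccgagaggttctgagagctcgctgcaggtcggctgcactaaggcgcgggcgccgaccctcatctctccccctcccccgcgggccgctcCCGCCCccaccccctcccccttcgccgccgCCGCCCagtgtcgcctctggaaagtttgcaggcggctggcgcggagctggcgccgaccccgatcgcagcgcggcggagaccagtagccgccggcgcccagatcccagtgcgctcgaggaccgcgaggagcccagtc
Gcgr start 2: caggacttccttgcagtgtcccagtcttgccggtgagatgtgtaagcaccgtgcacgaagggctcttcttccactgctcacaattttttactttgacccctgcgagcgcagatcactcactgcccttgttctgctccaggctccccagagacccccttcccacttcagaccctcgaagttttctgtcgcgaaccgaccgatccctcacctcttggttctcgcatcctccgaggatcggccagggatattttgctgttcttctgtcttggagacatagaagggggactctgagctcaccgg
The first region holds 71.0% G and C with 35 CpG dinucleotides, the other 55.7% with 14, where the median over all 33469 promoters of the table was 51.7%. A long non-coding RNA gene, LOC103693493, overlaps Gcgr on the opposite strand in this annotation. It has no row under that name in the files, and the libraries were stranded.

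Gpr119 encodes a Gs-coupled receptor for oleoylethanolamide and related lipids. It had 39.5 and 33.0 TPM in the monolayers and 39.3 and 38.5 TPM in 3D culture. The groups overlapped, and the spread of the monolayer cultures exceeded the difference of the means (log2 fold change 0.06, 95% interval -0.13 to 0.26, adjusted p = 0.561 in limma). With monolayer replicate 2 left out, the log2 fold change was -0.030. Within a culture, the ratio of Gcgr to Gpr119 was 1.34 and 1.70 in monolayer and 3.10 and 3.01 in 3D culture, a ratio that does not depend on scaling between cultures. Summed over both Gs-coupled receptors, the level was 92.3 and 89.2 TPM in the monolayers and 161 and 154 TPM in 3D culture.

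None of the 3 Gq-coupled receptors passed the threshold, although 2 of them were higher in both 3D cultures than in either monolayer culture. Ffar1, whose product responds to long-chain fatty acids, had 49.4 and 40.5 TPM in the monolayers and 51.5 and 52.1 TPM in 3D culture. Its groups did not overlap, but the monolayer cultures differed from each other by more than the means of the groups did. The log2 fold change was 0.16 (95% interval -0.04 to 0.37, adjusted p = 0.160 in limma). P2ry1, whose product responds to ADP, had 26.7 and 22.8 TPM in the monolayers and 28.8 and 29.2 TPM in 3D culture, with no overlap. Its log2 fold change was 0.18 (95% interval 0.0035 to 0.36, adjusted p = 0.0939 in limma). In both genes monolayer replicate 1 was the culture nearest to the 3D group, so omitting it widened the gap between the means. The log2 fold change was then 0.27 for Ffar1 and 0.25 for P2ry1. Omitting monolayer replicate 2 instead gave 0.06 for Ffar1 and 0.11 for P2ry1. Without 3D replicate 1 and 2 it was 0.16 and 0.17 for Ffar1, and 0.18 and 0.18 for P2ry1.

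Chrm3, the receptor through which acetylcholine from vagal endings acts on beta cells, was low and variable. It had 3.26 and 2.32 TPM in the monolayers and 3.22 and 2.83 TPM in 3D culture, so that both 3D values lay between the monolayer values. The log2 fold change was 0.06 (95% interval -0.29 to 0.42, adjusted p = 0.741 in limma), and it was negative after quantile normalization (-0.069). The interval is the widest of the 9 and includes the value of Sstr2. Summed over the 3 Gq-coupled receptors, the level was 79.4 and 65.6 TPM in the monolayers and 83.5 and 84.2 TPM in 3D culture.

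Of the Gi-coupled receptors, the somatostatin receptors moved in opposite directions. They are the receptors through which somatostatin from neighbouring delta cells restrains insulin release. The most abundant subtype, Sstr3, fell while the less abundant Sstr1 and Sstr2 rose. Sstr3 had 39.2 and 37.0 TPM in the monolayers and 31.6 and 31.8 TPM in 3D culture (log2 fold change -0.30, standard error 0.055, adjusted p = 0.0125 in limma). Sstr1 had 3.17 and 3.43 TPM in the monolayers and 5.18 and 5.43 TPM in 3D culture (log2 fold change 0.52, standard error 0.097, adjusted p = 0.0136 in limma). Sstr2 had 1.65 and 1.47 TPM in the monolayers and 2.35 and 2.46 TPM in 3D culture (log2 fold change 0.38, standard error 0.11, adjusted p = 0.0425 in limma). In all 3 genes the cultures of a group lay close together and the groups did not overlap. With these adjusted p, neither Sstr1 nor Sstr3 passed a threshold of 0.01. With the robust empirical Bayes fit both did (adjusted p = 0.0089 and 0.0087 in limma). Both passed the threshold of 0.05 in every other setting that kept them. Neither passed with either 3D culture left out. The log2 fold change without 3D replicate 1 and 2 was then 0.54 and 0.50 for Sstr1 and -0.31 and -0.30 for Sstr3. The call of Sstr2 was weaker: its adjusted p was 0.139 after quantile normalization, 0.0588 with the replicate number as a block and 0.0517 with the most abundant transcript of each gene, and between 0.0602 and 0.139 with each culture left out.

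Sstr5 lay under the filter and was not tested. It had 0.0836 and 0.0608 TPM in the monolayers and 0.191 and 0.197 TPM in 3D culture, all of it on ENSRNOT00000025451.2, while its other transcript, ENSRNOT00000080944.1, was listed at 0. The 3D values were higher than the monolayer values, at a level where a fitted fold change depends mostly on the pseudocount. In a fit of all 16749 genes above 0 in any culture, Sstr5 changed by 0.15 on the log2 scale with an adjusted p of 0.0553 in limma. Sstr4, the remaining member of the family, was listed at 0.0194 TPM in monolayer replicate 1 and at 0 in the other cultures.

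The balance among the somatostatin receptors differed between the groups within every culture. There were 12.3 and 10.8 TPM of Sstr3 for each TPM of Sstr1 in monolayer, and 6.09 and 5.86 in 3D culture. The ratio of Sstr3 to Sstr2 was 23.7 and 25.3 in monolayer and 13.4 and 12.9 in 3D culture. Sstr3 held 88.9% and 88.2% of the summed level of the 4 subtypes in monolayer and 80.3% and 79.7% in 3D culture, so it was the predominant subtype in all cultures. The sum itself was 44.1 and 42.0 TPM in the monolayers and 39.3 and 39.9 TPM in 3D culture. Somatostatin transcripts did not exceed 0.24 TPM in any culture.

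**Figure D4:**
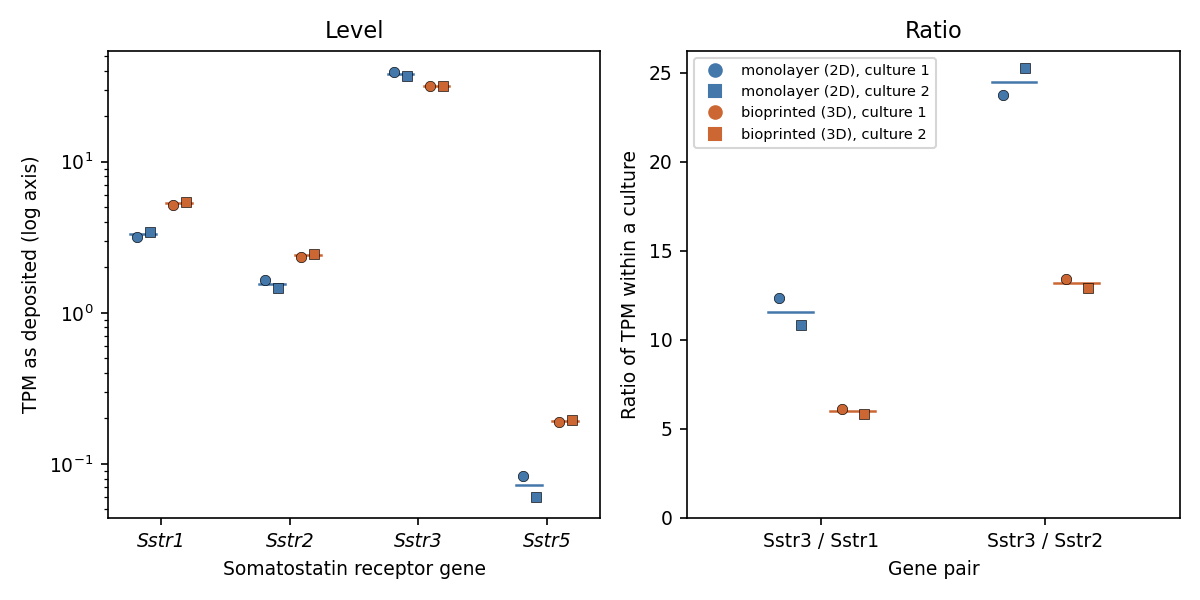
Deposited TPM of the 4 somatostatin receptor genes on a log axis (left) and the ratio of Sstr3 to Sstr1 and to Sstr2 within each culture on a linear axis (right), with circles and squares for cultures 1 and 2, monolayer in blue, 3D in orange and bars at the group means (n = 2). Sstr3 is lower and the other subtypes are higher in 3D culture, and the ratio of Sstr3 to Sstr1 is 12.3 and 10.8 in monolayer against 6.09 and 5.86 in 3D culture.

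The promoters of the 3 subtypes that passed the threshold are shown since these subtypes differed in direction. The sequences are those of RefSeq on GRCr8, 300 bases each, Sstr1 at chr6:81567233-81567532, plus strand, Sstr2 at chr10:99163103-99163402, plus strand and Sstr3 at chr7:111980201-111980500, minus strand.
Sstr1: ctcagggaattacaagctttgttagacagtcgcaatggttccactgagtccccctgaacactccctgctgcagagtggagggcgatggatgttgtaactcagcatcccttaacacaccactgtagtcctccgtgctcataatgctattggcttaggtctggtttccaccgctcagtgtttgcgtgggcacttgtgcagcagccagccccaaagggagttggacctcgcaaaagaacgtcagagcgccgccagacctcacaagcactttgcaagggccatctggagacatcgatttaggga
Sstr2: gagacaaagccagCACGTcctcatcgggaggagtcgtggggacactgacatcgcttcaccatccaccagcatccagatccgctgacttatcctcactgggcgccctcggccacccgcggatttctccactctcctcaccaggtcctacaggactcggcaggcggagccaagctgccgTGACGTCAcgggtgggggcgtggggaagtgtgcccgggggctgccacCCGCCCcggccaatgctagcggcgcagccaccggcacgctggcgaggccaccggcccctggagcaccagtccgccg
Sstr3: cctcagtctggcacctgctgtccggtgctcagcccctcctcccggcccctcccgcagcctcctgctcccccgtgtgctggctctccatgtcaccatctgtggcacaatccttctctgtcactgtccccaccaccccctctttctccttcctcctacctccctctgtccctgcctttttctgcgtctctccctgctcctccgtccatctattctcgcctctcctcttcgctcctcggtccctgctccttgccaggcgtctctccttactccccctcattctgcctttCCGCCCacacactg
Capitals mark matches, on either strand, to a cAMP response element (TGACGTCA), an E-box (CACGTG), the core of a hypoxia response element (ACGTG, which an E-box also contains), a GC box (GGGCGG), an AP-1 site (TGANTCA), a homeobox core (TAATTA) and a TATA box (TATAAA). Of all 33469 promoters of this length, 1.83% held the first, 6.42% the E-box, 19.3% the hypoxia core, 33.1% the GC box, 7.33% the AP-1 site, 5.36% the homeobox core and 14.2% the TATA box. The Sstr2 promoter holds a full cAMP response element that begins at position -73 relative to the start, a hypoxia core at -237 and a GC box at -26, where negative positions lie before the start. Sstr3 holds a GC box at 36, after the start, and Sstr1 none of the 7 motifs. Among the other receptors, whose 8 starts were searched in the same way, the first Gcgr start, Sstr5, Chrm3 and P2ry1 hold 2 GC boxes each, and the other Gcgr start and the promoters of Ffar1, Gpr119 and Adra2a none of the 7 motifs. Such matches describe letters in a window and show neither binding nor its lack. Sstr2 lies within the span of Slc39a11 on the opposite strand, and Slc39a11 had 22.1 and 22.5 TPM in the monolayers and 28.7 and 29.8 TPM in 3D culture; whether reads were shared between them was not tested.

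Adra2a encodes the receptor through which adrenaline and noradrenaline suppress insulin release. It had 21.9 and 22.8 TPM in the monolayers and 28.7 and 26.0 TPM in 3D culture. The groups did not overlap, and the means, 22.3 ± 0.640 and 27.4 ± 1.97 TPM (SD, n = 2), differed 1.22-fold. The log2 fold change of 0.24 (95% interval 0.03 to 0.45) did not pass the threshold (adjusted p = 0.0728 in limma). It passed on TPM without scaling (adjusted p = 0.0401) and with a minimum mean of 5 TPM (adjusted p = 0.0447), and not with any culture left out. Summed over the 5 Gi-coupled receptors, the level was 66.0 and 64.8 TPM in the monolayers and 68.0 and 65.9 TPM in 3D culture, values that nearly coincide. Over all 10 receptors the sum was 238 and 220 TPM in the monolayers and 313 and 304 TPM in 3D culture, most of the difference being that of Gcgr.

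Close relatives of these receptors were mostly low, and they are given here for their family and not by their values. Among the muscarinic receptors Chrm4, which is Gi-coupled, was at the level of Chrm3, with 3.54 and 3.80 TPM in the monolayers and 2.20 and 3.12 TPM in the 3D cultures (adjusted p = 0.0811 in limma). Chrm2 did not exceed 0.463 TPM, and Chrm1 and Chrm5 were listed at 0. Of the alpha-2 adrenergic receptors, Adra2b did not exceed 0.0494 TPM and Adra2c 0.516 TPM. Of the P2Y receptors other than P2ry1, P2ry4 had 0.202 and 0.221 TPM in the monolayers and 0.876 and 1.31 TPM in 3D culture, under the filter, P2ry6 did not exceed 0.0166 TPM, and P2ry2, P2ry12, P2ry13 and P2ry14 were listed at 0. Among the fatty acid receptors Ffar3, which responds to short-chain fatty acids, was the most abundant after Ffar1 but lower than it in every culture, Ffar2 had 5.68 and 5.14 TPM in the monolayers and 4.26 and 4.60 TPM in the 3D cultures (adjusted p = 0.0552 in limma), and Ffar4 did not exceed 0.194 TPM. A value of 0 in these files is not proof that the RNA was absent: Pnpla2, the gene of a widely used lipase, was listed at 0 in 3 cultures and at 11.6 TPM in the fourth.

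Of 124 other receptors listed for comparison, 120 were in the files. Of these, 26 passed the filter, 38 were listed at 0 in all cultures, and 9 passed the test, all of them higher in 3D culture. That is 34.6% of those tested, where 38.0% of all genes tested passed in either direction and 18.5% passed as higher in 3D culture. Without 3D replicate 1 none passed in limma (8 had an unadjusted p below 0.05), without 3D replicate 2 there were 3 and without monolayer replicate 2 there were 5. Of 10 tested receptors for peptides and prostanoids, 6 rose (60%). Gipr, the receptor of the incretin GIP and like Gcgr a Gs-coupled receptor of the secretin family, went from 80.5 and 91.2 TPM to 208 and 211 TPM (log2 fold change 1.24, adjusted p = 0.0035 in limma). Glp1r, the receptor of GLP-1, changed less, from 24.7 and 22.7 to 28.9 and 28.7 TPM (log2 fold change 0.23, adjusted p = 0.0307 in limma). Its call was lost without the filter (adjusted p = 0.0593 in limma). With the most abundant transcript of each gene it was lost as well (adjusted p = 0.203 in limma). The ratio of Gcgr to Glp1r was 2.14 and 2.48 in monolayer and 4.21 and 4.03 in 3D culture. That of Gcgr to Gipr was 0.656 and 0.616 in monolayer and 0.585 and 0.548 in 3D culture.

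The other peptide and prostanoid receptors that rose were Oxtr, Ptger3, Galr1 and Adcyap1r1. Oxtr, the oxytocin receptor, went from 0.775 and 1.13 to 3.44 and 3.49 TPM, and Ptger3, a Gi-coupled receptor of prostaglandin E, from 3.36 and 2.84 to 7.85 and 7.07 TPM. The log2 fold changes were 1.17 and 1.01 for these and 0.47 and 0.27 for Galr1, which binds galanin, and Adcyap1r1, which binds PACAP. Adgrg1, an adhesion receptor, was the most abundant of this list after Gipr and had 53.5 and 52.9 TPM in the monolayers and 60.6 and 60.9 TPM in the 3D cultures (adjusted p = 0.0836 in limma). Of 9 tested receptors for neurotransmitters and purines, 3 rose (33.3%), where 18.5% of all genes tested rose. Both subunits of the GABA-B receptor were among them, Gabbr1 with 25.1 and 24.3 against 39.4 and 40.2 TPM (log2 fold change 0.63) and Gabbr2 (0.49). The other was the adenosine receptor Adora2b (0.43), which did not pass after quantile normalization or without the filter (adjusted p = 0.0833 and 0.0817 in limma). The most abundant single transcript of Gabbr1 had a log2 fold change of -0.055, so the rise was in its other transcripts. Adora1 had 33.2 and 33.7 TPM in the monolayers and 35.1 and 39.4 TPM in the 3D cultures (adjusted p = 0.299 in limma). Of 7 tested receptors for other nutrients and lipids none passed in limma, and 2 had an unadjusted p below 0.05. Ffar3 had 28.9 and 35.4 TPM in the monolayers and 33.5 and 31.7 TPM in 3D culture, and Gprc5b 30.2 and 27.5 against 29.0 and 29.3 TPM, with overlap of the groups in both and a sign that depended on the scaling.

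Behind the receptors, 40 of 89 tested genes of G proteins, effectors and regulators passed the test, 29 higher and 11 lower in 3D culture, 44.9% against the background of 38.0%. Without 3D replicate 1 none passed in limma (33 had an unadjusted p below 0.05) and without 3D replicate 2 there were 8. Of the Gs and cyclic AMP genes 13 of 28 tested rose and none fell in limma, with a median log2 fold change of 0.28, where 18.5% of all genes tested rose. The largest rises were those of the phosphodiesterase genes Pde10a (12.9 and 9.21 against 27.5 and 30.4 TPM) and Pde4d (8.24 and 5.47 against 15.7 and 14.2 TPM), which break down cyclic nucleotides, and of the adenylyl cyclase gene Adcy1, which makes cyclic AMP (2.46 and 1.76 against 5.22 and 4.43 TPM). Gnas, the Gs alpha subunit, was by far the most abundant of these, with 1099 and 1156 TPM in the monolayers and 1158 and 1218 TPM in 3D culture, and did not pass (adjusted p = 0.753 in limma). Prkar1a, a regulatory subunit of protein kinase A, rose by 0.30 on the log2 scale (adjusted p = 0.0127 in limma).

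Of the Gi and Go genes 4 of 10 tested fell and 1 rose, with a median log2 fold change of -0.15, where 19.5% of all genes tested fell and 18.5% rose. Gnai1, an inhibitory alpha subunit, had 19.2 and 15.8 TPM in the monolayers and 13.4 and 13.7 TPM in 3D culture, and Gnaz, another, had 48.1 and 47.1 against 38.7 and 41.7 TPM. Gpsm1 and Gpsm2, modulators that bind inhibitory alpha subunits, had log2 fold changes of -0.50 and -0.34. Gnao1, the Go alpha subunit, went from 60.6 and 56.8 to 75.1 and 69.6 TPM. The most abundant inhibitory subunit, Gnai2, had 142 and 148 TPM in the monolayers and 138 and 133 TPM in 3D culture and did not pass (adjusted p = 0.157 in limma). Without scaling between cultures Gnai1 did not pass either (adjusted p = 0.0587 in limma).

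Of the genes listed with Gq, 9 of 19 tested rose and 2 fell, with a median log2 fold change of 0.17. Among all genes tested 18.5% rose and 19.5% fell. The list was wider than the Gq pathway itself. It also held genes of ion channels and their partners and an atypical protein kinase C gene, Prkcz. Unc79 and Unc80, which are partners of the ion channel Nalcn, were among the rises, while Nalcn itself was listed at 0 in all cultures. Gnaq, the Gq alpha subunit, had 72.5 and 57.0 TPM in the monolayers and 85.3 and 86.2 TPM in 3D culture (log2 fold change 0.37, adjusted p = 0.0322 in limma), while its relative Gna11 had 54.0 and 44.7 against 49.6 and 52.6 TPM with overlap of the groups. The phospholipase C genes Plcb4 and Plcb1 had log2 fold changes of 0.47 and 0.42, and Dgkh, a diacylglycerol kinase gene at low level, of 0.79. Dgkh had 0.789 and 0.489 TPM in the monolayers and 2.02 and 1.73 TPM in 3D culture. It is among the counted rises, although it passed the filter only through its 3D cultures. The falls were those of the kinase genes Prkcz and Prkd1, with log2 fold changes of -0.75 and -0.59. Plcb1 did not pass in 5 of 10 other settings.

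Of the regulators of G protein signalling (RGS proteins, which end the signal by speeding GTP hydrolysis), 3 of 9 tested rose and 1 fell, 44.4% against 38.0% of all genes tested. Rgs16 went from 52.4 and 50.6 to 93.2 and 90.6 TPM (adjusted p = 0.0035 in limma, log2 fold change 0.78) and Rgs9 from 51.0 and 57.7 to 76.5 and 84.4 TPM. Rgs2 rose at low level, with a log2 fold change of 0.50, and Rgs19 fell from 13.2 and 11.9 to 6.58 and 7.50 TPM (log2 fold change -0.80, adjusted p = 0.0046 in limma). Of 11 tested genes of arrestins, arrestin-domain proteins and receptor kinases, 3 rose and 3 fell, or 54.5%. Arrestins and receptor kinases shut off and internalize active receptors, a role that is not implied here for the arrestin-domain genes. The rises were those of the arrestin-domain genes Arrdc3 (log2 fold change 1.17) and Arrdc4 (0.63) and of the kinase gene Grk3 (0.31), and the falls those of Arrb2 (-0.28), Arrdc1 (-0.25) and Grk2 (-0.22). Of 12 tested beta and gamma subunits 1 passed (8.33%), Gng5, which fell from 548 and 466 to 436 and 401 TPM (adjusted p = 0.0334 in limma) and did not pass in 4 other settings. Gnb2, the most abundant, had 596 and 605 against 544 and 549 TPM (adjusted p = 0.0669 in limma).

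**Figure D5:**
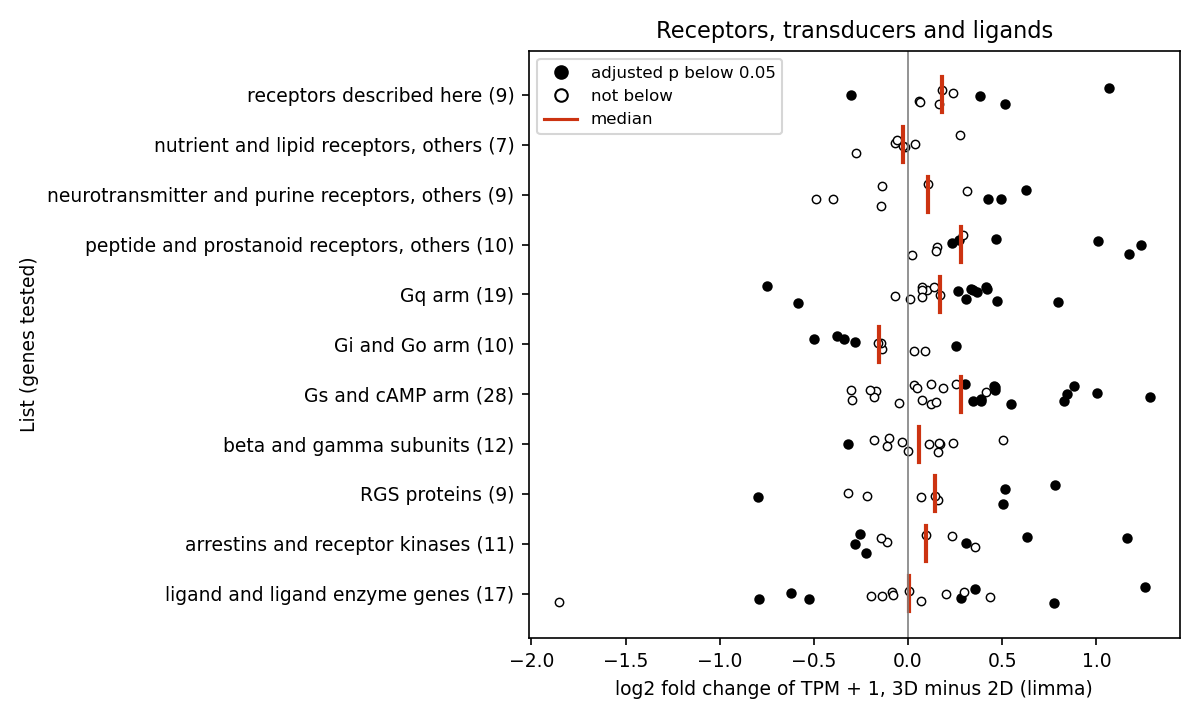
Log2 fold change of TPM + 1, 3D minus 2D, from limma for every tested gene of the receptors described here and of the 10 comparison lists, with the number tested in brackets, filled points for an adjusted p below 0.05 and a red bar at the median (vertical jitter is random). The medians are 0.18 for the receptors described here, 0.28 for the Gs and cyclic AMP list and -0.15 for the Gi and Go list.

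Among genes of the ligands and of the enzymes that make or remove them, 7 of 17 tested passed, 4 higher and 3 lower in 3D culture, which is 41.2% against the 38.0% of all genes tested. Without 3D replicate 1 none passed in limma (9 had an unadjusted p below 0.05) and without 3D replicate 2 there was 1, Maob. Gcg, which encodes glucagon, the ligand of Gcgr, had 41.9 and 73.8 TPM in the monolayers and 124 and 155 TPM in 3D culture (log2 fold change 1.26, standard error 0.28, adjusted p = 0.0217 in limma). It is also an alpha-cell marker, and the markers Irx2 and Ttr were listed at 0 in all cultures. Its cultures varied more than those of Gcgr, and its adjusted p was 0.0652 without the filter and 0.128 with the robust fit. Nt5e and Entpd3, ectoenzymes that act on extracellular nucleotides, had log2 fold changes of 0.77 and 0.36. Npy, which encodes a peptide that inhibits secretion, fell from 142 and 167 to 87.6 and 95.1 TPM (log2 fold change -0.79, adjusted p = 0.0069 in limma). Maob and Ddc, which break down and make monoamines, had log2 fold changes of -0.62 and -0.53. Iapp, the gene of amylin and the most abundant of the list, had 11094 and 10467 TPM in the monolayers and 12300 and 13260 TPM in the 3D cultures (adjusted p = 0.140 in limma).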

How the data were processed

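Polyadenylated RNA of 2 monolayer and 2 3D-bioprinted INS-1 cultures was prepared with a stranded mRNA kit and read as 75-base single ends. Per the labels and the methods, the authors checked reads with FastQC 0.11.8, quantified transcripts with Salmon 1.2 on a reference named rn4 plus the human insulin gene, and deposited TPM with decimal commas. TPM carry no depth per sample, so the 2 cultures per group, which the labels call biological replicates, set the precision.

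Groups were taken from the titles. TPM were summed per symbol, genes with a mean of at least 1 TPM kept, cultures scaled by TMM (trimmed mean of M values) with no weights (30% of M and 5% of A trimmed; factors 0.960 to 1.02), and log2(TPM + 1) tested with limma 3.58.1 in R 4.3.3 (empirical Bayes with intensity trend, threshold 0.05). Levels in the text are deposited TPM, and fold changes are scaled. The DESeq2 test of the study needs counts and was not repeated.

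The receptors and all gene lists were chosen with earlier results of these data known. Of each comparison list the genes named are all called ones if at most 6, otherwise the 3 largest rises and falls, and the 2 most abundant. Some values of single marker genes are not reported here. Promoters are RefSeq sequences on GRCr8, matched by symbol for all 10 receptors (11 starts). Alternatives were the scaling, filter, pseudocount, empirical Bayes options, replicate block, most abundant transcript, a threshold of 0.01 and each culture left out.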

Additional observations from a re-analysis of the deposited data

How the results depend on the processing

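With 2 cultures per group and no depth in the TPM, differences as small as those of Gpr119 and Chrm3 could not be resolved. Leaving out 1 culture at a time, the number of genes called ran from 108 to 4473 (4543 with all), of the receptors from 1 to 5, of other receptors from 0 to 11, of transduction genes from 0 to 41 and of ligand genes from 0 to 8. The low ends came without 3D replicate 1, when a single 3D culture is assumed to vary like the monolayer cultures; the one receptor left was Gcgr. At an adjusted p below 0.01 these counts were 1436, 1, 4, 13 and 3. After quantile normalization 8 other receptors were called higher and 2 lower. The replicate numbers did not pair the cultures (correlation of deviations -0.0060), and with them as a replicate block 4805 genes, 3 receptors, 12 other receptors, 44 transduction genes and 9 ligand genes were called.

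For the receptors, direction and side of the threshold were kept 81 times in other settings, and 3 calls were lost, 2 gained and 1 sign turned; with a culture left out these numbers were 23, 8, 2 and 3. For the other named genes they were 450, 31, 3 and 8 in other settings and 105, 88, 1 and 6 with a culture left out. Signs turned only in genes that were not called, with the exception of Gabbr1 (-0.055 for its most abundant transcript): Chrm3 (-0.069 after quantile normalization), Ffar3 (0.025 unscaled, 0.0055 after quantile normalization and 0.0054 with a minimum of 5 TPM), Gprc5b (0.016 unscaled), Gna11 (-0.024 without the filter) and Gnas (-0.0046 without the filter and -0.035 for its most abundant transcript). With a culture left out, log2 fold changes ran from -0.030 to 0.15 for Gpr119, -0.090 to 0.22 for Chrm3, -0.20 to 0.16 for Ffar3, -0.055 to 0.0020 for Gprc5b, -0.086 to 0.11 for Gna11 and -0.042 to 0.11 for Gnas. The cause was not tested.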
